A study of Homo sapiens with 4 samples.

Results

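MYC and PVT1 are neighbouring genes on chromosome 8. The peaks of HuR-bound RNA over them were compared between WS1 human skin fibroblasts given 5 Gy of X-rays and unirradiated (0 Gy) WS1 cells. WS1 is an established fibroblast line. RNA immunoprecipitation followed by sequencing (RIP-seq) gave 4 libraries, 1 with HuR and 1 with control immunoglobulin (IgG) at 5 Gy and 1 of each at 0 Gy. The deposited data used are 2 peak lists, 1 per dose, each holding the peaks of a HuR library against the IgG library at the same dose. Nothing in the labels gives the time after irradiation.

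The members are all peaks that overlap the hg19 intervals chr8:128748315-128753680 (MYC, 5366 bp) and chr8:128806000-129113499 (PVT1, 307.5 kb) by at least 1 bp. These were 47 of the 36216 peaks at 5 Gy, with 2 in MYC and 45 in PVT1, and 50 of the 47930 peaks at 0 Gy, with 2 in MYC and 48 in PVT1. The locus was chosen by measured values of these same lists, among them the long 5 Gy peak at the start of PVT1. Every value below is therefore a description without a test. With 1 list per dose there is no replicate check either. Each peak carries the score its authors' caller gave it, as deposited, which starts at 60 and is tied at 3100 for 5.52% of all peaks at 5 Gy and for 5.18% at 0 Gy. The score grows with sequencing depth, which is unknown here, so scores at the 2 doses are set side by side and not subtracted. The lists give no read counts, no strand and no transcript, and the amount of MYC and PVT1 RNA in the cells was not analysed here. More RNA of a gene and more HuR on each molecule cannot be told apart in such lists.

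HuR, the product of ELAVL1, is an RNA-binding protein that attaches to U-rich and AU-rich stretches in mature and unspliced transcripts and is known for changing mRNA stability and translation. MYC encodes a transcription factor of cell growth and division, and its short-lived mRNA is a long-known HuR target through AU-rich elements of its 3′ UTR. PVT1 is a long non-coding RNA gene downstream of MYC, transcribed in the same direction, with many alternative exons, long introns and several microRNA hairpins. PVT1 is known as a p53 target gene and as a modulator of MYC level, a role described mostly in tumour cells and mice.

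MYC was covered at both doses by a pair of peaks that fill most of the gene, and the space between them was narrower after irradiation. At 5 Gy the first peak covered 128748240 to 128749905 (1666 bp, score 1845.27) and the second 128749975 to 128753579 (3605 bp, score 3100). At 0 Gy the first covered 128748294 to 128748895 (602 bp, score 2271.02) and the second 128749931 to 128753627 (3697 bp, score 3100). The second peak, which holds the 3′ part of the gene, was thus nearly the same at both doses, and its ends differed by 44 and 48 bp. The first peak began within 100 bp before the interval at both doses, and its far end lay 1010 bp further into the gene at 5 Gy than at 0 Gy.

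The peaks left a gap of 69 bp at 5 Gy and 1035 bp at 0 Gy, so almost all of the additional MYC coverage lay in the stretch between the 2 peaks. Peaks covered 5196 bp of MYC at 5 Gy (96.8% of the interval) and 4278 bp at 0 Gy (79.7%), or 121% of the 0 Gy length. Of the covered bases, 4186 were under peaks at both doses, 1010 at 5 Gy only and 92 at 0 Gy only. The longer first peak did not rank higher in its list: 8.55% of the 5 Gy list scored at least as high as it did, against 6.82% of the 0 Gy list for its counterpart. The second peaks sit in the tie at 3100, so their order within either list is not resolved. They ended 101 bp (5 Gy) and 53 bp (0 Gy) before the end of the interval. Which exons or introns lie under these peaks was not analysed here.

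**Figure D1:**
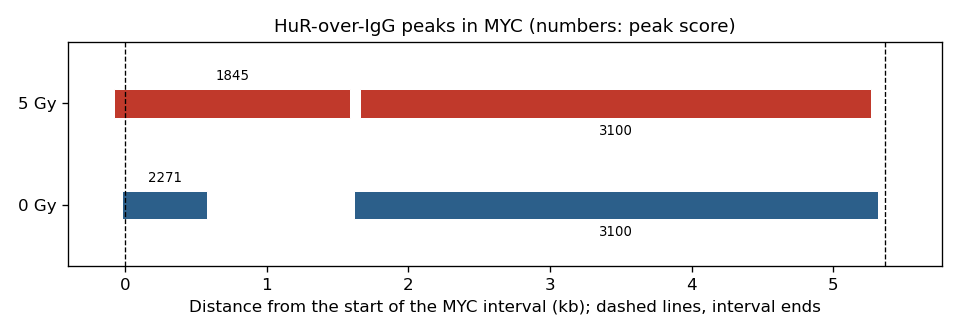
Peaks of HuR over IgG in MYC at 5 Gy (upper row) and 0 Gy (lower row), drawn to scale against the distance from the start of the MYC interval in kb; the number beside each bar is the authors' peak score, and each row is 1 list. The second peaks nearly coincide, and the first peak is 1666 bp long at 5 Gy and 602 bp at 0 Gy.

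PVT1 opened with a single uninterrupted peak at 5 Gy, where the 0 Gy list had a row of separate peaks. The 5 Gy peak ran from 128806023 to 128818909 (12887 bp) and its score was 3100. It began 0.023 kb inside the PVT1 interval, so it covers the 5′ end of the gene. Under it lay 8 peaks of the 0 Gy list, with a summed length of 12262 bp.

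The 8 peaks at 0 Gy were of unequal strength, with the strongest near the start. The first ran from 128805925 to 128806521 (597 bp, score 146.48) and began before the interval. The second ran from 128806592 to 128807916 (1325 bp, score 935.18). The one after it, from 128807921 to 128811082, had the highest score of any PVT1 peak at 0 Gy (3162 bp, score 2190.09). Together they form a nearly unbroken block, 4 bp apart. The fourth, from 128811374 to 128812276, was shorter and weaker than its neighbours (903 bp, score 226.65). The fifth ran from 128812467 to 128814802 (2336 bp, score 983.33). The sixth ran from 128814869 to 128818030, again 3162 bp long, with a score of 1337.18. The last members of the row were both short: 128818234 to 128818733 (500 bp, score 121.59) and 128818752 to 128819028 (277 bp, score 76.79). Scores within the row thus ranged from 76.79 to 2190.09, and none reached the tie at 3100 in which the single 5 Gy peak sits.

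The fused peak at 5 Gy and the row at 0 Gy occupied almost the same bases. In order from the 5′ end, the 7 gaps between the 0 Gy peaks measured 70, 4, 291, 190, 66, 203 and 18 bp. All gaps were under 300 bp, and 3 of them exceeded 100 bp. Their sum, 842 bp, is the whole of the 5 Gy peak that lay outside 0 Gy peaks, and 93.5% of the 5 Gy peak was also covered at 0 Gy. The 0 Gy row reached 98 bp further out at the 5′ side and 119 bp further at the 3′ side. Behind it, after a gap of 1 bp, the 0 Gy list went on with a peak not under the long one (128819030 to 128819257). The 5 Gy list had a gap of 146 bp at this edge, so here the 0 Gy list was the less broken. In covered bases, the 5′ end thus differed mainly in how a stretch covered at both doses was divided into peaks. The length covered there was similar, at 12887 bp at 5 Gy and 12045 bp at 0 Gy (107%). The scores were not alike (3100 at 5 Gy, at most 2190.09 at 0 Gy), and the signal under the peaks was not analysed here.

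Few 5 Gy peaks lay over as many 0 Gy peaks as the PVT1 peak, which was picked for this fusion. Of all 5 Gy peaks, 9.28% lay over at least 2 peaks of the 0 Gy list, and a single one (0.00276%) lay over at least 8, which is the PVT1 peak itself. The cutoff of 8 is that peak's own number, so this count is no test of rarity. The number also depends on how the caller divided the 0 Gy row, and it was 4 with peaks within 100 bp joined. Among the 26 5 Gy peaks of at least 10 kb, the number of 0 Gy peaks underneath ranged from 1 to 8 with a median of 2, and 6 of them were longer than the PVT1 peak. Short gaps as such were not rare: 18.3% of all gaps between neighbouring 0 Gy peaks and 15.96% of those between 5 Gy peaks were at most 291 bp, the widest in the row.

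**Figure D2:**
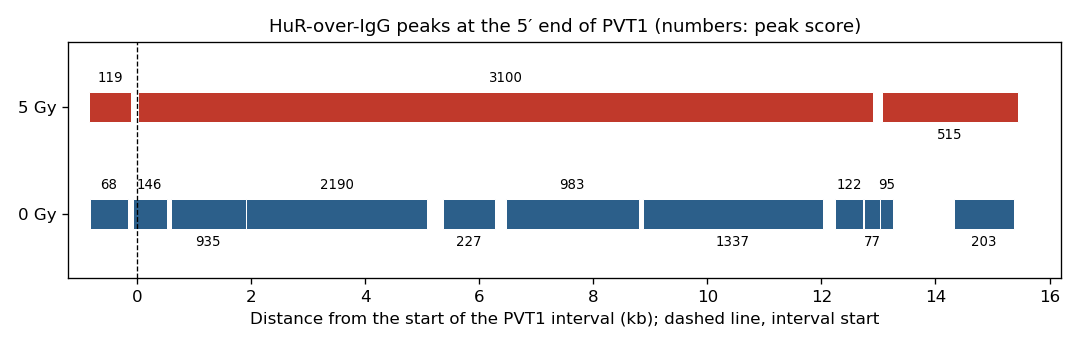
Peaks at the 5′ end of PVT1 at 5 Gy (upper row) and 0 Gy (lower row), drawn to scale against the distance from the start of the PVT1 interval in kb; numbers are the authors' peak scores, and each row is 1 list. The 12887 bp peak at 5 Gy spans 8 peaks at 0 Gy that are separated by gaps of 4 to 291 bp.

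The interval boundary fell inside a cluster of peaks. Just outside it, 101 bp before the interval, the 5 Gy list had a peak from 128805155 to 128805899 (745 bp, score 118.92). The 0 Gy list had its counterpart 148 bp before the interval, from 128805172 to 128805852 (681 bp, score 68.48). Just inside it were the 5 Gy peak of 12887 bp and the first 0 Gy peak of the row. At the other end the last 5 Gy peak inside (397 bp, score 84.69) ended at 129093078, and the next one outside (333 bp, score 86.18) began 26837 bp beyond the interval. The last 0 Gy peak inside (370 bp, score 85.61) ended at 129084750, and the next one outside lay 1738391 bp beyond the interval.

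Fusion was seen at other places in PVT1 as well, on a smaller scale. Of the 45 PVT1 peaks at 5 Gy, 5 (including the long one) lay over at least 2 peaks of the 0 Gy list, beside 9.28% in the list as a whole. None of the 48 PVT1 peaks at 0 Gy lay over more than 1 peak of the 5 Gy list, beside 4.79% in that list. The 5 of 45 includes the long peak for which the locus was chosen, and it is close to the share in the whole list. At a share of 4.79% few such peaks would be met among 48, so the lack of the converse is no result about PVT1 either.

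The neighbour of the long peak was the first of these smaller fusions. At 5 Gy it ran from 128819056 to 128821443 (2388 bp, score 515.47), 146 bp behind the long peak. At 0 Gy it faced 2 peaks, 128819030 to 128819257 (228 bp, score 95.46) and 128820332 to 128821370 (1039 bp, score 203.28). With it, the 5 Gy list covered the interval from 0.023 to 15.4 kb with 1 gap, while 2 further 0 Gy peaks at 16.1 and 16.7 kb from the start (scores 67.48 and 76.62) had no 5 Gy peak over them.

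At 32 kb from the start, a 5 Gy peak of 1764 bp (128838045 to 128839808, score 442.82) lay over 3 short 0 Gy peaks of 284, 295 and 363 bp. Their scores were 66.96, 91.02 and 95.34, all under 100. The 5 Gy peak ranked higher in its list: 22.7% of the 5 Gy list scored at least as high as it did, against 66.8% of the 0 Gy list for the best of the 3. These ranks set a fused peak beside a much shorter one, so they are not of like units.

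At 105 kb, a 5 Gy peak of 2673 bp (128911415 to 128914087, score 1081.36) lay over 3 peaks of the 0 Gy list. These measured 798, 335 and 660 bp and had scores of 353.19, 74.95 and 204.48. It was among the 3 of 45 PVT1 peaks that reached a score of 1000 at 5 Gy, beside 13.1% of all 5 Gy peaks. At 0 Gy, 2 of 48 PVT1 peaks reached 1000, both in the row at the 5′ end, beside 12.2% of all 0 Gy peaks.

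Near 141 kb, a 742 bp peak at 5 Gy (128946991 to 128947732, score 273.68) lay over 0 Gy peaks of 422 and 311 bp with scores of 62.37 and 70.70. Around it the 5 Gy list had a chain of 6 peaks between 138.5 and 146.2 kb from the start. The 0 Gy list had 3 peaks in the same stretch, the strongest at 128948164 to 128948639 (476 bp, score 143.71), whose 5 Gy counterpart was 1481 bp long with a score of 393.21. Of the 25 kb bins of PVT1, the one from 125 to 150 kb had the largest gain in covered length, with 4.94 kb at 5 Gy and 1.21 kb at 0 Gy.

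A pair of sites downstream had high scores and a like rank at both doses. The farthest of them, 203 kb from the start, was the highest-scoring PVT1 peak outside the 5′ end at either dose. It ran from 129008765 to 129010646 at 5 Gy (1882 bp, score 1161.90) and from 129008714 to 129010434 at 0 Gy (1721 bp, score 990.93). The 5 Gy peak overlapped it over 88.7% of its length, and 11.8% of peaks scored at least as high in the 5 Gy list, against 12.3% in the 0 Gy list. A second such site, 114 kb from the start, had a 5 Gy peak from 128920091 to 128921419 (1329 bp, score 726.30) and a 0 Gy peak from 128920261 to 128921264 (1004 bp, score 637.43). The 5 Gy peak was 1.32 times as long here, and 75.5% of it was covered at 0 Gy. Their ranks were alike, with 16.3% of peaks in the 5 Gy list at or above the score, and 16.6% in the 0 Gy list.

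**Figure D3:**
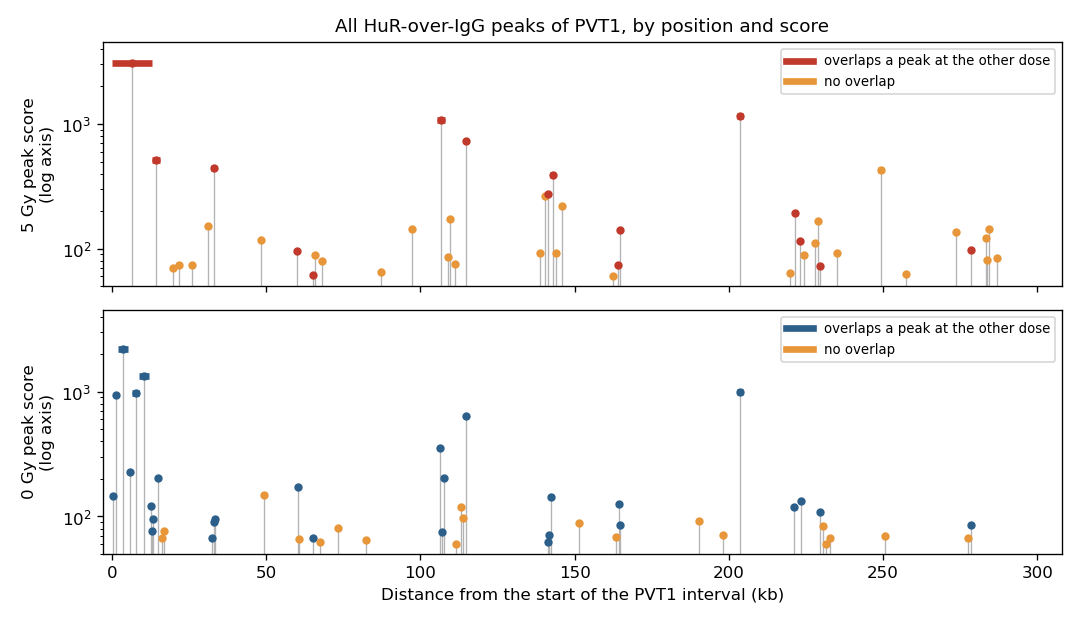
All 45 PVT1 peaks at 5 Gy (upper panel) and all 48 at 0 Gy (lower panel), by distance from the start of the PVT1 interval in kb and by the authors' peak score on a log axis; bars span each peak's length, dots mark its middle, and orange marks peaks without overlap at the other dose. The sites near 114 and 203 kb are high at both doses, while the site near 105 kb scores 1081.36 at 5 Gy and at most 353.19 at 0 Gy. In all, 29 peaks at 5 Gy and 19 at 0 Gy are orange.

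Over the whole gene, PVT1 had about the same number of peaks at both doses and more covered length at 5 Gy. The number was 45 at 5 Gy and 48 at 0 Gy, or 93.8% (95% interval of counting error 62.6 to 140). The whole irradiated list held 75.56% as many peaks as the whole unirradiated list, and chromosome 8 alone gave 76.03%. Both values are lower than that of PVT1 but lie inside its counting interval. The covered length of PVT1 was 46.8 kb at 5 Gy (15.2% of the interval) and 30.8 kb at 0 Gy (10.02%), or 152%. Over the whole lists the 5 Gy length was 91.7% of the 0 Gy length, and on chromosome 8 it was 97.0%. PVT1 thus went the other way from the lists as a whole in covered length.

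Most of the additional length lay outside the fused 5′ end. In the 294.6 kb after the long peak, peaks covered 33.9 kb at 5 Gy and 18.8 kb at 0 Gy, or 181%. There were 44 peaks at 5 Gy in this remainder and 41 at 0 Gy, of which 1 at 0 Gy also reaches under the long peak. The difference of 15.1 kb in the remainder compares with 0.842 kb within the long peak.

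The gain was spread along the gene. Of 13 bins of 25 kb (the last one shorter), 11 had more covered length at 5 Gy, 1 had less and 1 was empty at both doses. The first bin held 16.1 kb at 5 Gy and 14.2 kb at 0 Gy, which was 34.5% of the gene's covered length at 5 Gy and 45.9% at 0 Gy. The bins from 50 to 75 kb and from 150 to 175 kb were practically equal, at 2.090 and 1.510 kb at 5 Gy and 2.087 and 1.470 kb at 0 Gy. Only the bin from 175 to 200 kb was lower, with no peak at 5 Gy and 2 weak peaks at 0 Gy (scores 91.85 and 70.73).

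**Figure D4:**
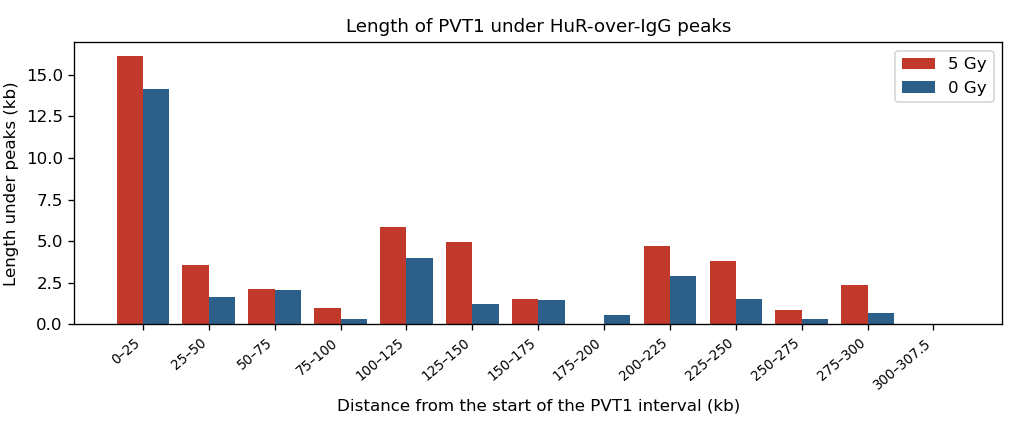
Length of PVT1 under peaks (kb) in bins of 25 kb from the start of the interval, with 5 Gy (left bars) beside 0 Gy (right bars), 1 list per dose and no error bars. The 5 Gy bar is higher in 11 of 13 bins, and the bin from 175 to 200 kb is the exception.

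The individual PVT1 peaks were also longer at 5 Gy, as were those of the whole lists. PVT1 peaks had a median length of 551 bp at 5 Gy, against 398.5 bp at 0 Gy, beside 559 and 448 bp in the whole lists. At 5 Gy 10 of the 45 PVT1 peaks were at least 1000 bp long, beside 9068 of the 36216 peaks of the list. At 0 Gy 7 of the 48 were, beside 8973 of 47930. In 11 cases 1 peak of each dose lay only against each other. In 8 of these the 5 Gy peak was longer, beside 58.3% of all such pairs in the lists, and its length was 0.901 to 3.11 times that at 0 Gy (median 1.12, beside 1.032 over all pairs).

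Many PVT1 peaks at 5 Gy lay where the 0 Gy list had none. Of the 45 peaks at 5 Gy, 16 (35.6%, Wilson 95% interval 23.2 to 50.2) overlapped a 0 Gy peak, beside 73.0% of all 5 Gy peaks. Of the 48 peaks at 0 Gy, 29 (60.4%, 95% interval 46.3 to 73.0) overlapped a 5 Gy peak, beside 58.1% of all 0 Gy peaks. The sharing of 0 Gy peaks was thus close to that of their list, and the sharing of 5 Gy peaks was below that of theirs. The 29 shared 0 Gy peaks include the 8 under the long 5 Gy peak, shared by the choice of the locus, so the closeness is no result. The intervals take each peak as independent of its neighbours and hold counting error alone.

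Weak peaks are shared less often in both lists, so the shares were also set side by side within score classes. Among PVT1 peaks at 5 Gy with scores from 60 to under 100, 5 of 22 were shared, beside 46.6% in the whole list. From 100 to under 250 it was 3 of 13, beside 74.8%. From 250 upward it was 8 of 10, beside 97.7%. The share was below that of the list in each class. At 0 Gy the PVT1 shares were above those of the list in each class, with 11 of 28 beside 28.8%, 11 of 13 beside 55.9% and 7 of 7 beside 93.7%. These 0 Gy counts include the 8 peaks under the long 5 Gy peak, shared by the choice of the locus, so the excess is no result.

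The 29 PVT1 peaks found at 5 Gy without a 0 Gy peak had a median score of 91.64, beside 82.41 for all unshared 5 Gy peaks. Of the 29, 23 scored under 150, beside 88.1% in the list, so they were mostly weak, as unshared peaks in general were. They amounted to 16.6 kb in length. The strongest ran from 129054358 to 129056019, 248 kb from the start (1662 bp, score 424.59), with the nearest 0 Gy peak 427 bp away. The next, at 128945785 to 128946927 (1143 bp, score 262.48), belonged to the chain near 141 kb and lay 63 bp from a 0 Gy peak. The one after it, 128951416 to 128952177 (762 bp, score 220.77), closed that chain, 2776 bp from the nearest 0 Gy peak. Of the 29, 12 lay within 1 kb of a 0 Gy peak, beside 40.02% of all unshared 5 Gy peaks, and 5 lay more than 5 kb away, beside 29.1%. The median distance to the nearest 0 Gy peak was 1.31 kb for those in PVT1, beside 1.58 kb in the list, and the farthest PVT1 peak was 8.38 kb off.

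Toward the 3′ end the 5 Gy list had a small group of its own. Between 283 and 287 kb from the start lay 4 peaks with scores from 80.86 to 143.25, the last of them at 129092682 to 129093078. The last 0 Gy peak in PVT1 ended at 129084750, 4.38 kb before this group. The final 20.4 kb of the interval had no peak at either dose.

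The 19 PVT1 peaks found at 0 Gy without a 5 Gy peak were weaker still. All scored under 150, beside 83.1% of all unshared 0 Gy peaks. Their median score was 69.55, beside 87.36 in the list, and they amounted to 6.75 kb. The strongest, 128854883 to 128855555, had a score of 149.86 and lay 265 bp from a 5 Gy peak of score 117.90 at 128853865 to 128854617. The next, at 128918764 to 128919228 (score 119.45) and 128919619 to 128920065 (score 97.42), lay in front of the strong shared site at 114 kb, 862 and 25 bp from a 5 Gy peak. Among PVT1 peaks with scores from 150 upward, 6 of 15 at 5 Gy had no counterpart, beside 6.65% of such peaks in the whole list. At 0 Gy this held for 0 of 11 such PVT1 peaks, beside 15.2%. The 11 include peaks under the long 5 Gy peak, which are shared by the choice of the locus. The cutoff of 150 also lies just above the strongest unshared 0 Gy peak (149.86). Neither the 0 of 11 nor the lack of unshared 0 Gy peaks from 150 upward is therefore a result.

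Beside other stretches of the genome of the same length, the gain in PVT1 was on the high side. In windows of 307.5 kb laid end to end along each chromosome, with at least 10 peaks at 0 Gy, 518 of 1780 (29.1%) had more covered length at 5 Gy than at 0 Gy. The median ratio was 90.3% (quartiles 76.8 and 102%), and 33 windows (1.85%) had a ratio at or above the 152% of PVT1. Of the 41 windows with at least as many 0 Gy peaks as PVT1, none did. Both limits are set on the 0 Gy list alone, which favours windows high at 0 Gy and so low ratios. With a peak in each list as the only limit, 1867 of 4663 windows had more covered length at 5 Gy. Of these 4663, which include windows with few peaks, 358 (7.68%) were at or above the PVT1 ratio. The windows are not aligned with genes, and PVT1 itself falls into parts of them. In windows with at least 10 peaks at 5 Gy, the share of 5 Gy peaks that overlapped a 0 Gy peak had a median of 75%, and 16 of 1339 windows (1.19%) were at or below the 35.6% of PVT1. These are descriptions of the lists. The locus was picked with its values known, so its place among the windows carries no test.

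**Figure D5:**
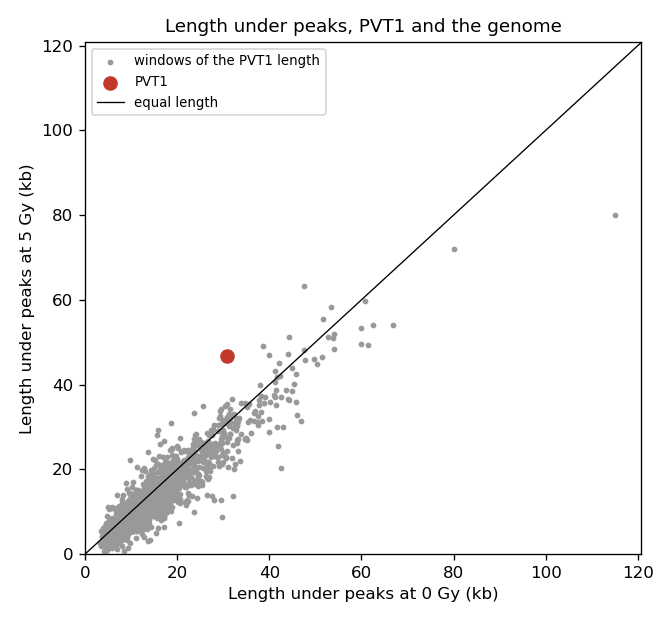
Length under peaks (kb) at 5 Gy (vertical axis) against 0 Gy (horizontal axis) for PVT1 (red) and for 1780 windows of the same length with at least 10 peaks at 0 Gy (grey); the line marks equal lengths. PVT1 lies above the line at 46.8 kb at 5 Gy and 30.8 kb at 0 Gy, and 29.1% of the windows lie above it.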

How the data were processed

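RIP-seq with HuR and with IgG was deposited for WS1 cells at 5 Gy and 0 Gy, 1 library per group. The submitters' processing notes name cutadapt 1.9.1, Bowtie2 2.2.4 and hg19. Peak names in the files begin with MACS. Its version, its settings other than those in the list names and the read depth: not given in the sources used here. Peak scores are the authors' own, as deposited, and the list names carry 1e-06, a p-value that would correspond to the lowest score. The other deposited values, the start and end positions, are printed counted from 1.

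Peaks overlapping the MYC or PVT1 interval by 1 bp were taken with pandas 2.3.3, numpy 2.4.6 and scipy 1.17.1 under Python 3.11.15. Covered lengths are clipped to the interval, and overlap uses all peaks of the other list and ignores strand. A peak was counted in the 25 kb bin of its midpoint. Shares have Wilson 95% intervals, and ratios of peak numbers have an interval derived from the 5 Gy share of all peaks counted. No test between doses was made. Overlap counting was checked on lists with known fusions.

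All MYC peaks, the PVT1 peaks under the longest 5 Gy peak, the 10 highest-scoring, the 5 longest and the 3 strongest unshared of each list were to be named. Others named were chosen after their values were seen. Members, intervals and settings were chosen with earlier results of these data known. Exons, microRNAs and sequences of the locus are not reported here.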

Additional observations from a re-analysis of the deposited data

How the results depend on the processing

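The order of the doses in covered length was the same under all 5 alternatives run for each gene, while the order by PVT1 peak number was not. The PVT1 length at 5 Gy was 170% of that at 0 Gy for peaks with a score of at least 100 and 190% with an equal number of peaks per list. It was 151% with peaks within 100 bp joined, 144% with peaks within 1000 bp joined and 150% with the interval widened by 10 kb, against 152% as reported. The MYC length (121%) was 123.1% with peaks joined at either distance, 122.6% in the widened interval, and unchanged with a score of at least 100 or equal list sizes. The number of PVT1 peaks at 5 Gy turned from 93.8% of that at 0 Gy to 115% at a score of at least 100, to 155% with equal list sizes and to 117% with peaks within 1000 bp joined, so the peak number gives no direction. The share of PVT1 peaks at 0 Gy that overlap a 5 Gy peak (60.4%) was 75% at a score of at least 100 and 79.3% with equal list sizes. Under an overlap of at least 50% of each peak, 20% of the PVT1 peaks at 5 Gy were shared, and 18.8% of those at 0 Gy. The shares over the whole lists under these settings are not reported here. Whether the changed shares are particular to PVT1 was therefore not tested. The 8 peaks at 0 Gy under the long 5 Gy peak became 4 with peaks within 100 bp joined and 2 with peaks within 1000 bp joined, by construction of those settings. No paired analysis was possible because there are no replicates to pair. Unknown sequencing depth limits every comparison of peak number, length and score.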

Other observations

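Outside MYC and PVT1 the neighbourhood was nearly empty of peaks. Before MYC, the nearest peak lay 513 kb from the gene at both doses. At 5 Gy it covered 1131 bp with a score of 436.79, and at 0 Gy 246 bp with a score of 74.00. The 52.3 kb between MYC and PVT1 had no peak that did not lie within 1 kb of the start of PVT1. In the 52.3 kb after PVT1 there was a single peak at 5 Gy (333 bp, score 86.18) and none at 0 Gy.

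The longest stretch of PVT1 without a peak was 37.6 kb at 5 Gy, which began behind the peak ending at 128971157 and ended at the strong site 203 kb from the start. At 0 Gy the longest such stretch between peaks was 26.8 kb, from the peak ending at 129056764 to the one starting at 129083515.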
